A study of Homo sapiens with 6 samples.

Results

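The receptor tyrosine kinases described here, 10 in number, are MET, PDGFRA, PDGFRB, FGFR1, FGFR2, FGFR4, DDR1, DDR2, EPHA2 and TYRO3. They were chosen by name as receptors of the MET, PDGF, FGF, discoidin domain, EPH and TAM families, and all 10 have a row among the 58735 genes of the deposited tables. RNA was sequenced from H2452, an established pleural mesothelioma line grown in RPMI-1640 with fetal bovine serum and penicillin/streptomycin. In 3 libraries (sgCtrl) the cells carried a scrambled control sgRNA, and in 3 libraries (sgNF2-1) an sgRNA against NF2, the tumour suppressor that encodes merlin and restrains YAP through the Hippo kinases. Cells of both groups had received a lentiviral vector with Cas9 and were sorted for its fluorescent marker, so each group is a sorted pool of infected cells and only 1 of the study's NF2 guides was sequenced. The study describes its data in general as biological replicates, but neither the labels nor its RNA sequencing methods say whether these 3 libraries a group came from separate cultures. The p-values therefore measure only the spread between these libraries, which may be technical where cultures were shared.

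Receptor tyrosine kinases are membrane proteins that bind a ligand outside the cell, pair up and phosphorylate each other and adaptor proteins inside it. MET binds hepatocyte growth factor, PDGF receptors bind PDGF chains, FGF receptors bind fibroblast growth factors, EPH receptors bind ephrins on neighbouring cells, and discoidin domain receptors are unusual in binding collagen of the matrix. TYRO3 is one of the TAM receptors, with AXL and MERTK, whose ligands are GAS6 and protein S. Several of these receptors have been studied as drug targets in mesothelioma, and merlin is known to limit the surface level and signalling of growth factor receptors, a step that RNA levels do not measure.

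Between 14782423 and 17416463 reads were counted on genes per library. NF2 itself, the targeted gene, was covered by 1162, 1197 and 1025 reads in sgCtrl and by 692, 802 and 590 reads in sgNF2-1. Its mRNA fell to 62.0% of the sgCtrl mean, with no overlap between the groups. Guide-directed cuts change the DNA, so the mRNA level does not give the amount of intact merlin. The study assessed its knockout by western blot, a protein measurement that these libraries do not hold. The line's labelled origin was checked against markers. All 9 mesothelial markers listed passed the expression filter: MSLN, WT1, CALB2, PDPN, UPK3B and the keratins KRT7, KRT8, KRT18 and KRT19. Of these, 3 were higher, 3 lower and 3 not past the threshold in sgNF2-1. The keratins, which other epithelial cells also express, were highest, from 54.6 FPKM for KRT7 to 270.1 FPKM for KRT8 in sgCtrl. The other markers ran from 0.825 FPKM for UPK3B to 17.4 FPKM for PDPN there, so the count of 9 is a weak check of origin. Over all tested genes 17.7% were higher and 16.6% lower. Of the 5 epithelial markers listed, CDH1 was at 0 counts in all libraries, EPCAM had at most 9 counts and CLDN3 was also too low to be tested. CLDN4, a claudin of epithelial junctions, was expressed, with sgCtrl at 11.96 ± 1.41 and sgNF2-1 at 13.6 ± 0.912 CPM (SD, n = 3 each), and did not pass the threshold. TTF1, the last of them, is in this table a transcription termination factor and no epithelial marker. PTPRC, a marker of blood cells, was at 0 counts in all libraries. The 5 blood markers summed to 67.3 to 74.4 FPKM in sgCtrl and 32.0 to 35.1 FPKM in sgNF2-1, nearly all of it from CD14. The 4 endothelial markers summed to 0.935 to 1.15 FPKM in sgCtrl and 0.352 to 0.463 FPKM in sgNF2-1, with PECAM1 lower. The part of the marker changes in the receptor results was not tested.

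Of the 10 receptors 8 had enough reads to be tested, and 2 of these passed the threshold, PDGFRB lower and TYRO3 higher in sgNF2-1. The threshold was an adjusted p under 0.05, computed by the edgeR quasi-likelihood method with Benjamini-Hochberg adjustment over all 14179 tested genes. Of all tested genes 34.3% passed it, 17.7% higher and 16.6% lower, so 2 of 8 receptors is no excess over the background. The 8 log2 fold changes ran from -0.70 to 0.33 with a median of 0.043, beside a median of -0.0025 over all tested genes. FGFR2 and PDGFRA had at most 3 counts in every library and were not tested. These are bulk libraries, in which fewer cells of a kind and less RNA per cell cannot be told apart.

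**Figure D1:**
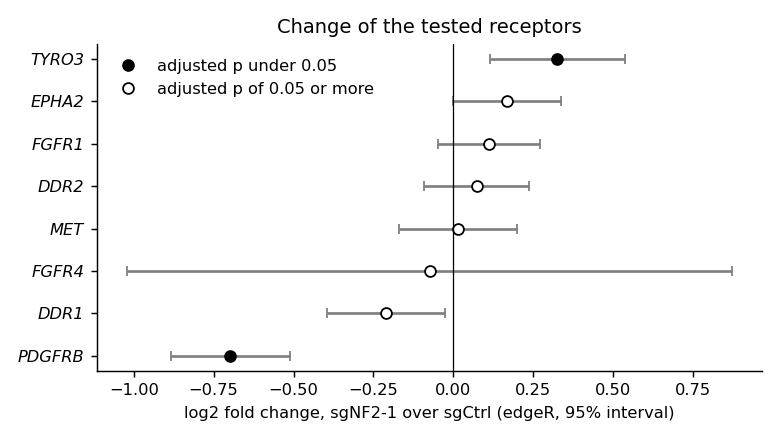
Log2 fold change (sgNF2-1 over sgCtrl, horizontal axis) of the 8 tested receptors from edgeR, with 95% intervals as bars. Filled points have an adjusted p under 0.05: PDGFRB at -0.70 lies left of 0 and TYRO3 at 0.33 right of it, while the interval of FGFR4, which rests on few reads, runs from -1.02 to 0.87.

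PDGFRB (ENSG00000113721, chromosome 5, 150113837 to 150155872, minus strand), the receptor for PDGF-B and PDGF-D that is best known from pericytes and fibroblasts, was the receptor with the largest change. Its level, as the count scaled to the TMM-adjusted library total (CPM), was 71.1, 77.5 and 67.0 in the sgCtrl libraries and 44.95, 45.03 and 42.9 in the sgNF2-1 libraries. All sgNF2-1 libraries lay well below all sgCtrl libraries, and the sgNF2-1 libraries lay closer to each other than the sgCtrl ones did. The mean fell from 71.9 ± 5.28 (SD, n = 3) to 44.3 ± 1.20 CPM (SD, n = 3), which left 61.6% of the sgCtrl mean. In edgeR's quasi-likelihood test this was a log2 fold change of -0.70 with a standard error of 0.091 and an adjusted p of 1.4e-06. In limma's test of log2(FPKM + 1), where FPKM is the count scaled by gene length and library depth, the difference was -0.63 (adjusted p = 0.0018). The call was kept in all alternatives run, with edgeR log2 fold changes from -0.74 to -0.64.

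PDGFRA (ENSG00000134853), the partner receptor that can pair with PDGFRB, was represented by 1, 0 and 1 reads in sgCtrl and 0, 1 and 0 in sgNF2-1. At this depth 3 counts, taken as the floor of detection, correspond to 0.17 to 0.211 CPM per library, and every PDGFRA value lay below it. No fold is given for it, and its ratio to PDGFRB could not be formed because 3 libraries held no PDGFRA count.

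TYRO3 (ENSG00000092445, chromosome 15, 41557675 to 41583586, plus strand) had 33.5, 28.8 and 31.0 CPM in sgCtrl and 40.01, 36.5 and 40.2 CPM in sgNF2-1. The lowest sgNF2-1 library stood above the highest sgCtrl library. The means were 31.1 ± 2.37 (SD, n = 3) and 38.9 ± 2.07 CPM (SD, n = 3), which edgeR put at 0.33 on the log2 scale, with a standard error of 0.10 and an adjusted p of 0.0155. This call was lost in 2 edgeR fits with 1 library left out. Without sgCtrl replicate 2 the log2 fold change was 0.27 (adjusted p = 0.0922 from edgeR). Without sgNF2-1 replicate 1 it was 0.31 (adjusted p = 0.0619 from edgeR). It was also not past the threshold in limma's test of log2(FPKM + 1), with a difference of 0.23 and an adjusted p of 0.0557. In limma 1 of the 7 receptors tested, PDGFRB, passed, beside 26.8% of the 13038 genes tested.

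AXL, the other TAM receptor that the cells expressed, also rose. Its fitted change was larger than that of TYRO3, a difference that was not tested. It went from 270.2 ± 6.18 (SD, n = 3) to 493.8 ± 29.6 CPM (SD, n = 3), a log2 fold change of 0.87 (adjusted p = 7.8e-09 from edgeR). AXL is one of the genes that the study listed as candidates from these libraries, so its rise is not independent evidence. MERTK, the remaining TAM receptor, had too few reads to be tested.

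**Figure D2:**
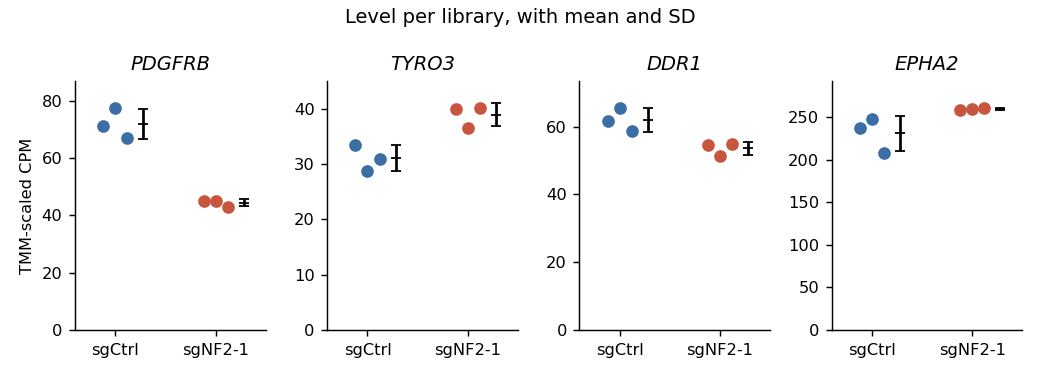
Level of PDGFRB, TYRO3, DDR1 and EPHA2 in each library (points) in TMM-scaled CPM (vertical axis, from 0), with the group mean and SD of 3 libraries beside them. PDGFRB and DDR1 lie lower in every sgNF2-1 library than in any sgCtrl library, and TYRO3 and EPHA2 higher, a separation that 45.3% of all tested genes showed. DDR1 and EPHA2 did not pass the adjusted p threshold.

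Neither of the discoidin domain receptors passed the threshold. DDR1 (ENSG00000204580, chromosome 6, 30876421 to 30900156), the family member typical of epithelia, had 61.7, 65.6 and 58.6 CPM in sgCtrl and 54.4, 51.2 and 54.9 CPM in sgNF2-1. All sgNF2-1 libraries were below all sgCtrl libraries, by a margin smaller than that of PDGFRB. The log2 fold change was -0.21 (95% interval -0.39 to -0.028, adjusted p = 0.0693 from edgeR), and without sgCtrl replicate 3, the lowest of its group, the adjusted p was 0.0462.

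DDR2 (ENSG00000162733, chromosome 1, 162631373 to 162787400), the member typical of mesenchymal cells and of fibrillar collagens, had 134.4, 147.2 and 150.3 CPM in sgCtrl and 151.2, 154.5 and 148.6 CPM in sgNF2-1. The ranges of the groups overlapped, and the log2 fold change was 0.073 (95% interval -0.092 to 0.24, adjusted p = 0.517 from edgeR). Compared per length within a library, DDR2 FPKM was 1.85, 1.91 and 2.18 times that of DDR1 in sgCtrl and 2.36, 2.56 and 2.30 times in sgNF2-1. The ratio was higher in all 3 sgNF2-1 libraries, with means of 1.98 ± 0.174 (SD, n = 3) and 2.41 ± 0.138 (SD, n = 3). A two-sided exact permutation test gave p = 0.10, which with 3 libraries a group is the least it can reach, and 0.30 after adjustment over the 3 ratios tested.

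EPHA2 (ENSG00000142627, chromosome 1, 16124337 to 16156087, minus strand), an EPH receptor for A-type ephrins that is abundant in many carcinomas, had 237.3, 247.8 and 207.9 CPM in sgCtrl. In the sgNF2-1 libraries it had 257.7, 259.8 and 260.9 CPM. The sgNF2-1 libraries stood above the sgCtrl ones and were close together, while sgCtrl replicate 3 was low for its group. The log2 fold change was 0.17 (95% interval -0.0021 to 0.34, adjusted p = 0.120 from edgeR), which did not pass the threshold.

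MET (ENSG00000105976, chromosome 7, 116672390 to 116798386), the hepatocyte growth factor receptor, had 283.7, 311.9 and 300.8 CPM in sgCtrl and 336.5, 308.6 and 259.8 CPM in sgNF2-1. The highest and the lowest of the 6 values both came from sgNF2-1, so the groups overlapped fully. The means were 298.8 ± 14.2 (SD, n = 3) and 301.7 ± 38.8 CPM (SD, n = 3), with a log2 fold change of 0.014 (95% interval -0.17 to 0.20, adjusted p = 0.928 from edgeR). The sign of so small a change turned under other settings. The FPKM of MET was 0.768 ± 0.0772 (SD, n = 3) times that of EPHA2 in sgCtrl and 0.687 ± 0.0925 (SD, n = 3) times in sgNF2-1 (two-sided exact permutation test, p = 0.40, adjusted p = 0.40).

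FGFR1 (ENSG00000077782, chromosome 8), the FGF receptor of mesenchymal cells, had 324.2, 338.6 and 318.6 CPM in sgCtrl and 346.1, 356.4 and 357.6 CPM in sgNF2-1. The groups did not overlap, but the distance between them was small, and the log2 fold change of 0.11 (95% interval -0.049 to 0.27, adjusted p = 0.287 from edgeR) did not pass. FGFR1 overlaps LETM2, which lies on the opposite strand and had a mean of 486 counts in sgCtrl and 812 in sgNF2-1. Whether counting used strand is not given in the sources used here, so reads from their shared bases cannot be told apart.

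FGFR4 (ENSG00000160867, chromosome 5), a receptor best known from liver, was represented by 12, 13 and 10 reads in sgCtrl and by 12, 7 and 14 in sgNF2-1. With so few reads the interval of its log2 fold change ran from -1.02 to 0.87 around -0.074, and a change within that range was not detectable at this depth. FGFR2 (ENSG00000066468), a receptor of epithelia, received 2, 0 and 2 reads in sgCtrl and 0 in all 3 sgNF2-1 libraries, all under the floor of 3 counts per library. FGFR1 FPKM was 144.3 ± 8.73 (SD, n = 3) times the sum of FGFR2 and FGFR4 in sgCtrl and 192.7 ± 74.9 (SD, n = 3) times in sgNF2-1, a difference within the spread (two-sided exact permutation test, p = 0.40, adjusted p = 0.40).

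Counted by overlap alone, 5 of the 8 tested receptors (PDGFRB, FGFR1, DDR1, EPHA2 and TYRO3) had CPM ranges that did not overlap between the groups, beside 45.3% of all tested genes. For each of the 5 the two-sided exact permutation test of CPM gave p = 0.10, the smallest it can give here. By a rule that asks for an unadjusted p under 0.05 and a change beyond 0.5 on the log2 scale, which is one reading of the study's thresholds, 1 of 8 receptors, PDGFRB, was called lower, beside 10.8% of all tested genes, and 0 were called higher, beside 9.22%. With the edgeR adjusted p and the same fold limit PDGFRB was again the 1 receptor called lower, beside 9.32% of tested genes, and 0 were higher, beside 8.42%.

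Per length, the levels of the 10 receptors spread over more than 3 orders of magnitude. In sgCtrl the order by mean FPKM was EPHA2 at 52.6 ± 4.79, MET at 40.2 ± 1.94, FGFR1 at 22.4 ± 0.742, DDR2 at 12.7 ± 0.739, PDGFRB at 9.55 ± 0.716, DDR1 at 6.44 ± 0.370, TYRO3 at 2.69 ± 0.204 and FGFR4 at 0.145 ± 0.0139 (SD, n = 3 each). FGFR2 and PDGFRA were lowest. None of the neighbours from EPHA2 down to FGFR4 in this order overlapped in their 3 libraries. In sgNF2-1 the order of these 8 was the same, but PDGFRB, at 5.83 ± 0.169 FPKM (SD, n = 3), now overlapped with DDR1, at 5.51 ± 0.191 FPKM (SD, n = 3). FGFR2 and PDGFRA, both under the floor, could not be ordered.

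**Figure D3:**
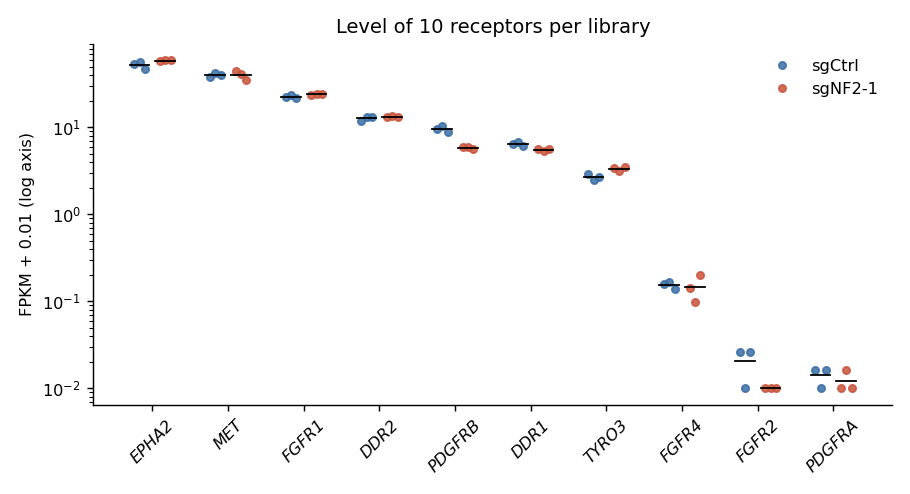
Level of the 10 receptors in each library, as FPKM + 0.01 on a log axis, with the group mean as a black line; values at 0.01 are libraries without a count. EPHA2, MET and FGFR1 lie above 20 FPKM in all libraries, FGFR4 below 0.2 FPKM, and PDGFRB is the receptor whose groups lie farthest apart among those that were tested.

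Among all 58 receptor tyrosine kinases listed, EPHA2, MET and FGFR1 ranked 1, 3 and 4 by mean FPKM in sgCtrl and 2, 3 and 5 in sgNF2-1. AXL, ranked 2 in sgCtrl, was first in sgNF2-1, with 49.7 FPKM against 90.0 FPKM. The 10 receptors made up 58.6% ± 0.308 (SD, n = 3) of the FPKM summed over the 58 kinases in sgCtrl and 50.5% ± 0.806 (SD, n = 3) in sgNF2-1, without overlap (two-sided exact permutation test, p = 0.10). Their own sum was 146.8 ± 7.17 FPKM (SD, n = 3) in sgCtrl and 150.9 ± 4.79 FPKM (SD, n = 3) in sgNF2-1, and these ranges overlapped (p = 0.40, same exact test). The lower share thus stood beside a sum over all 58 kinases that was 250.6 ± 10.9 FPKM (SD, n = 3) in sgCtrl and 298.8 ± 11.3 FPKM (SD, n = 3) in sgNF2-1, in which AXL took 19.8% and 30.1%.

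**Figure D4:**
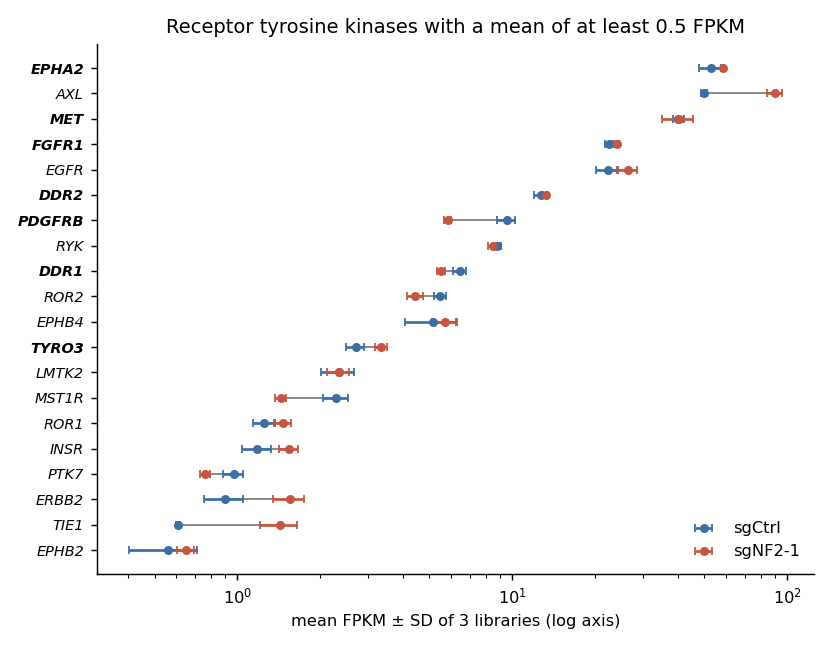
Mean FPKM (log axis, bars are SD of 3 libraries) of the receptor tyrosine kinases with a mean of at least 0.5 FPKM, ordered by sgCtrl, with the 10 receptors of interest in bold. The grey line joins the groups and is longest to the right for AXL, TIE1 and ERBB2 and to the left for PDGFRB and MST1R.

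Of 20 other receptors of the same families, 9 were tested, of which 1 was higher, 2 were lower and 6 did not pass, with a median log2 fold change of -0.41. Of all tested genes, for comparison with this list and those below, 17.7% were higher and 16.6% lower. Beside AXL, MST1R, the MET relative that binds macrophage stimulating protein, fell by 0.66 on the log2 scale (adjusted p = 0.0011 from edgeR). EPHB6, an EPH receptor without kinase activity, fell by 2.35 on the log2 scale (adjusted p = 0.0019 from edgeR), from 1.23 ± 0.605 to 0.241 ± 0.120 CPM (SD, n = 3 each). This fall rested on few reads, 10, 20 and 28 in sgCtrl and 2, 4 and 5 in sgNF2-1, the latter near the floor of 3 counts. EPHB6 is named here after its values were seen because its mean was under 1 CPM. Of 28 receptor tyrosine kinases of other families, 12 were tested, with 5 higher, 1 lower and 6 not past the threshold and a median log2 fold change of 0.12. The higher ones were AATK (1.34), TIE1 (1.25), ERBB2 (0.79), INSR (0.40) and EGFR (0.25), and the lower one was ROR2 (-0.29), all as edgeR log2 fold changes. AATK rested on few reads, 15, 15 and 13 in sgCtrl and 42, 29 and 38 in sgNF2-1. The CPM ranges of EGFR overlapped between the groups. In limma's test of log2(FPKM + 1), INSR (adjusted p = 0.0781) and EGFR (adjusted p = 0.115) did not pass.

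Sequences before RefSeq transcript starts are shown for PDGFRB and TYRO3, which passed the threshold, and for EPHA2, 1 of 3 receptors, with DDR1 and FGFR2, that have a window with the letters bound by TEAD factors, the DNA-binding partners of YAP. RefSeq windows (GRCh38.p14) of 250 bases before the transcript start were found for 9 of the 10 receptors, with 25 windows in all, since several have more than 1 start. FGFR1 was not among them. Short motifs were searched on both strands: GGAATG (the TEAD core), TGANTCA (AP-1), GGGCGG (the GC box of SP1) and CCAAT. Capitals mark their matches, in either orientation, and each sequence reads 5′ to 3′ on the gene's strand and stops where an annotated exon of the gene begins.
PDGFRB (chr5:150155873-150156095, minus strand): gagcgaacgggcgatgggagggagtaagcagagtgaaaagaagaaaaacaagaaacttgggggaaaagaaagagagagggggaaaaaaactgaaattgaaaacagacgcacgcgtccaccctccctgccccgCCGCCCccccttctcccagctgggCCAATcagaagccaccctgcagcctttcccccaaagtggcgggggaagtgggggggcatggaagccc
TYRO3 (chr15:41558962-41559033, plus strand, first of 2 RefSeq starts, inside the gene's interval): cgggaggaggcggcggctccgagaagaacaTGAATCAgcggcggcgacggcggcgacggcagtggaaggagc
EPHA2 (chr1:16156088-16156319, minus strand): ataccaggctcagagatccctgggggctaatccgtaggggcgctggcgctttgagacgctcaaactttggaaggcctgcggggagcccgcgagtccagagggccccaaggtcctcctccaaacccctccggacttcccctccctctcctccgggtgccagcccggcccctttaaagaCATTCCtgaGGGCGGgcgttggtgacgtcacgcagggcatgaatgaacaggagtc

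The TYRO3 stretch lies inside the interval given above for the gene, which begins at 41557675 with the start of another annotated transcript. The PDGFRB window held a GC box that began 118 bases before the RefSeq start and a CCAAT box that began 94 bases before it. The TYRO3 window held the AP-1 letters 220 bases before its start, and 3 GC boxes nearer to the start, within an annotated exon and so not printed. The EPHA2 window held the TEAD core 73 bases and a GC box 64 bases before the start. The other windows with the TEAD core were 1 of the 8 windows of DDR1, which did not pass the threshold, and 2 of the 5 windows of FGFR2, which was not tested. Over all 25 windows, GGAATG was in 4, TGANTCA in 3, GGGCGG in 12 and CCAAT in 7. The same motifs were in 11.9%, 6.57%, 42.6% and 32.0% of all 35116 RefSeq windows of this length, and windows of 1 gene can overlap. A match is a description of letters, not of binding.

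The genes nearest to each receptor on its chromosome are given as a description, with no test. Among the 20 tested genes nearest to PDGFRB the median change was -0.021 on the log2 scale, with 6 higher and 3 lower, and those nearest to TYRO3 had a median of -0.033, with 5 higher and 3 lower. Around DDR1, itself at -0.21, the median was 0.095, with 6 higher and 1 lower. Over the 8 tested receptors these medians ran from -0.16 for MET to 0.12 for FGFR4. The values depended on how many neighbours were taken. With the nearest 10 the medians ran from -0.28 for MET to 0.20 for DDR1, and with the nearest 40 from -0.10 for DDR2 to 0.15 for FGFR4. Around PDGFRB the nearest 10 gave -0.083 (3 higher, 1 lower) and the nearest 40 gave -0.051 (7 higher, 8 lower), and around TYRO3 they gave -0.10 (1 higher, 2 lower) and -0.075 (6 higher, 6 lower). The sign of the median around FGFR1 and EPHA2 turned with 10 neighbours, to -0.0078 and -0.045, and around DDR2 and EPHA2 with 40, to -0.10 and -0.081.

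Ligands of these receptors were expressed unevenly. HGF, the ligand of MET, had no count in any library. Of the 4 ligands of MET, MST1R and the TAM receptors, 3 were tested, and 1 was higher: GAS6, the TAM ligand, with 49.7 FPKM in sgCtrl and 59.9 FPKM in sgNF2-1 (log2 fold change 0.28, adjusted p = 0.0098 from edgeR). All 4 PDGF chains were tested, with a median of -0.20, and 1 was lower: PDGFC, a ligand of PDGFRA, at 14.7 FPKM in sgCtrl and 12.4 FPKM in sgNF2-1 (log2 fold change -0.24, adjusted p = 0.0338 from edgeR).

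Of 15 paracrine FGFs, 3 were tested and 8 had no count in any library. FGF2, a broad FGF receptor ligand, rose by 0.27 on the log2 scale (adjusted p = 0.0201 from edgeR) to 24.0 FPKM, and FGF5 fell by 0.75 (adjusted p = 3.1e-04 from edgeR) to 1.15 FPKM. Of 8 ephrins, 6 were tested, with 2 higher, 2 lower and a median of 0.081. EFNA1, the ligand most often paired with EPHA2, rose from 3.38 ± 0.964 (SD, n = 3) to 6.64 ± 0.651 CPM (SD, n = 3), and EFNB1 rose by 0.66 on the log2 scale. EFNA4 (-1.04) and EFNA5 (-0.75), also A-type ephrins, fell.

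Collagen chains listed as bound by discoidin domain receptors, a selection and not all such chains, showed the largest changes among the lists. Of 8 chains 6 were tested, with 1 higher and 3 lower and a median log2 fold change of -1.57. COL1A2, a chain of type I collagen, fell from 119.4 ± 17.7 (SD, n = 3) to 15.5 ± 2.17 CPM (SD, n = 3), a log2 fold change of -2.95, and COL1A1, the other chain, fell by 2.95 as well. COL3A1, the type III chain, fell from 30.6 ± 0.348 (SD, n = 3) to 2.04 ± 0.328 CPM (SD, n = 3), a log2 fold change of -3.90. COL8A1, a short-chain collagen, rose from 357.6 ± 23.3 (SD, n = 3) to 672.6 ± 63.4 CPM (SD, n = 3). The basement membrane chains COL4A1 and COL4A2 did not pass, at log2 fold changes of -0.19 and 0.17.

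Of 14 genes that activate HGF, shed receptors or serve as FGF coreceptors, 8 were tested, with 2 higher, 3 lower and a median of -0.12. The membrane proteases that cut receptors from the cell surface were lower: ADAM10 at a log2 fold change of -0.73, MMP14 at -0.51 and ADAM17 at -0.33. SPINT2, an inhibitor of HGF-activating proteases, rose by 0.53 on the log2 scale, and PLAU, the urokinase protease, by 0.24. FGFRL1, an FGF receptor relative without a kinase domain, had 34.0 FPKM in sgCtrl and 30.4 FPKM in sgNF2-1 and did not pass the threshold.

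Of 20 adaptors and signal relays 19 were tested, with 3 higher, 2 lower and 14 not past the threshold, and a median of -0.091. GAB2, a docking protein, rose by 0.91 on the log2 scale, NCK2, an adaptor to the actin skeleton, by 0.68, and SRC, a tyrosine kinase, by 0.42. PIK3R1, a regulatory subunit of PI3 kinase, fell by 0.57 and PTPN11, the phosphatase SHP2, by 0.21. GRB2, SHC1 and FRS2, each of which links some receptor tyrosine kinases to RAS, did not pass, at -0.073, -0.091 and -0.27.

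All 10 genes listed for switching receptors off were tested, with 3 higher, 2 lower and a median of 0.038. HGS, which sorts ubiquitinated receptors for lysosomes, rose by 0.51 on the log2 scale, and the ubiquitin ligases CBLB and CBL, which tag MET and others, by 0.45 and 0.33. LRIG1, a membrane protein that lowers receptor levels, and PTPRJ, a receptor phosphatase, each fell by 0.53. The counts of each list stand beside 17.7% of all tested genes higher and 16.6% lower. None of these lists is an independent sample, since all were composed with earlier results of these data known.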

How the data were processed

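The authors sequenced RNA from H2452 cells (3 sgCtrl and 3 sgNF2-1 libraries) as paired-end reads. Per the labels' processing notes, HISAT2, StringTie 1.3.3b, featureCounts 1.5.0-p3 and hg38 were used, without their roles. The strand setting is not given in the sources used here. The authors deposited whole-number read counts per gene, not normalized, and FPKM values, which equal count over gene length and 1 depth per library in the 9253 genes checked. FPKM serves to compare genes and counts to test groups.

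Counts were filtered (edgeR filterByExpr, minimum count 10, minimum total 15, 14179 genes), TMM-normalized and tested with edgeR 4.0.16's quasi-likelihood test on group in R 4.3.3, with Benjamini-Hochberg adjustment. limma 3.58.1 tested log2(FPKM + 1) for 13038 genes whose mean FPKM reached 0.5. Intervals are 95%. Alternatives were DESeq2 1.42.0, its size factors, library totals, other filters, a replicate block and a pseudocount of 0.1. Each library was also left out in turn. Separately, call rules with a log2 fold limit of 0.5 were applied to the fit of all libraries. For genes next to a receptor, the nearest 10 or 40 were taken in place of 20. The code was tested on simulated counts. The total counts, 14782423 to 17416463 per library, bound precision for rare transcripts; floors cover counting error only.

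Named genes are the 10 receptors, NF2 and, per list, at most 6 genes with the largest change among those with an adjusted p under 0.05 and a mean of at least 1 CPM; COL4A1, COL4A2, FGFRL1, GRB2, SHC1, FRS2, HGF, MERTK and the named markers, CLDN4, TTF1, CD14 and PECAM1 included, were added after their values were seen. LETM2 was added as an overlapping gene. The members and lists were chosen with earlier results of these data known. Of the blood list, 1 marker was left out and is not reported here.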

Additional observations from a re-analysis of the deposited data

How the results depend on the processing

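PDGFRB passed the threshold in all 13 edgeR and all 9 limma alternatives. FGFR1, DDR2 and EPHA2 kept their direction and stayed short of the threshold in all of theirs. TYRO3 kept its direction but fell short in edgeR without sgCtrl replicate 2 (0.27) and without sgNF2-1 replicate 1 (0.31), its log2 fold change ranging from 0.27 to 0.38 when 1 library was left out. DDR1 passed in edgeR only without sgCtrl replicate 3 (-0.25), with a range of -0.25 to -0.17. MET turned to -0.0099 with library totals, and to -0.022 without sgCtrl replicate 1 and -0.068 without sgNF2-1 replicate 1, in a range of -0.068 to 0.11. In limma MET was -0.0065, and turned to 0.025 without sgCtrl replicate 2 and 0.096 without sgNF2-1 replicate 3, in a range of -0.087 to 0.096. FGFR4 turned to 0.16 without sgNF2-1 replicate 2, in a range of -0.36 to 0.16. The causes of these shifts were not tested. Leaving out 1 library gave 0 to 1 receptors higher and 1 to 2 lower. Over all tested genes the same fits gave 2016 to 2514 higher and 1880 to 2271 lower.

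Of the 8 tested receptors, 3 had an unadjusted p under 0.05 in edgeR with no fold limit. The share of all tested genes under this rule was not counted. It is at least the 34.3% that passed the stricter adjusted threshold, so 3 of 8 is not read as an excess. With a log2 fold limit of 0.5, 0 receptors were higher in edgeR, by an unadjusted p or an adjusted one. Over all genes, 1308 were higher and 1531 lower with the unadjusted p, and 1194 and 1322 with the adjusted p, beside 2515 and 2351 with no fold limit. Same-numbered libraries did not deviate together (correlations -0.038, 0.071 and 0.059), so the numbers were not taken as pairs. With the replicate block in edgeR, PDGFRB was at -0.70 and TYRO3 at 0.33, and no receptor call changed. Other scalings moved the median of all genes to at most -0.029. Depth limits FGFR2, FGFR4 and PDGFRA.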
